A study of Mus musculus with 4 samples.

Results

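The nuclear genes of oxidative phosphorylation were taken from the deposited table of FPKM (fragments per kilobase of exon, divided by a factor for each library) by symbol. A protein-coding gene was a member when its name began with Ndufa, Ndufb, Ndufc, Ndufs, Ndufv, Uqcr, Atp5 or Cox4 to Cox8, or was *Sdha*, *Sdhb*, *Sdhc* or *Sdhd*. Of 53465 genes in the table, 92 met this rule. By function, 44 belong to complex I, 4 to complex II, 8 to complex III, 20 to complex IV and 16 to complex V. *Ndufa4* and *Ndufa4l2* carry complex I names but were counted with complex IV, where their products work. The rule also takes in genes that are not subunits, namely 8 *Ndufaf* assembly factors of complex I, the supercomplex factor *Cox7a2l* and the coupling factor gene *Atp5s*. Subunit genes with other names, such as *Cyc1* of complex III and *Usmg5* of complex V, fall outside the rule and are given further down.

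Complexes I and II pass electrons from NADH and succinate to ubiquinone, complex III passes them on to cytochrome c, and complex IV to oxygen. The proton gradient that complexes I, III and IV build drives ATP synthesis by complex V. Most subunits are nuclear genes whose products are imported and assembled with the few subunits encoded by mitochondrial DNA, and several subunits of complexes IV and V are encoded by more than 1 paralogue, some of them known for use in particular tissues such as muscle, lung or testis.

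The study made Long RNA-seq libraries from female germline stem cells (FGSCs), a cultured mouse line from ovary. In the shNC group the cells carried a lentiviral control shRNA, and in the shNAT10 group a lentiviral shRNA against *Nat10*. Both groups came from the same line, with infected cells selected by puromycin or blasticidin S depending on the vector, and each group has 2 libraries. The labels describe isolation of mRNA with an Oligotex kit, whereas the methods of the paper describe rRNA-depleted libraries.

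The targeted gene was examined first. *Nat10* stood at 7.79 and 5.42 FPKM in the shNC libraries and at 2.95 and 3.04 FPKM in the shNAT10 libraries. The shNAT10 libraries were both below the shNC libraries, as the labels would have it. The log2 fold change of shNAT10 over shNC was -1.09, with a 95% confidence interval of -1.63 to -0.55 (limma, Benjamini-Hochberg adjusted p = 0.123; adjusted p = 1.69e-05 in limma-voom). Here and below, a gene was past the threshold with a fold change over 1.2 and an unadjusted limma p of at most 0.05, and *Nat10* was past it in all 10 alternatives that kept the 4 libraries but not without shNAT10-1 (-1.07) or without shNAT10-2 (-1.11). An exact permutation test (two-sided) over 2 libraries in each group cannot give a p under 0.3333. The paper calls the libraries of a group biological replicates, but nothing in the labels says whether they came from separate cultures, so the p-values measure the spread between these 4 libraries only.

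Fragments recovered from the FPKM numbered 14900422 for shNC-1 and 13026747 for shNC-2, and 11055849 for shNAT10-1 and 13768904 for shNAT10-2. Loci related to rRNA took 46.8%, 36.3%, 24.2% and 26.2% of them in the same order, and 7921150, 8303880, 8379653 and 10160774 fragments fell on other genes. These loci were rRNA genes by biotype and a list of names with *Gm42418*, *Gm26917* and *Lars2* among them. The paper reports *Gm42418* and *Gm26917* as reduced in shNAT10 cells by RT-qPCR. A floor of 3 fragments on 1 kb of exon lay at 0.255, 0.253, 0.239 and 0.196 FPKM, and such floors cover counting error only. The germline label was checked against 11 marker genes. *Tfap2c*, *Dppa3*, *Pou5f1* and *Dazl* were at 0 in all 4 libraries, and *Ddx4* was above 0 in shNAT10-1 alone, at 0.0529 FPKM. By the mean over the 4 libraries the most abundant of the 11 was *Ifitm3*, although *Kit* stood above it in shNC-1. *Ifitm3* was at 9.29 and 22.2 FPKM in shNC and at 27.1 and 33.6 FPKM in shNAT10. *Kit* was at 24.5 and 21.2 FPKM against 14.5 and 15.6 FPKM, the only one past the threshold of the 4 that were tested, lower in both shNAT10 libraries (-0.60; limma adjusted p = 0.123). *Prdm1* was at 0.0702 to 0.0916 FPKM, *Nanos3* at most at 0.184, *Gfra1* at most at 0.204 and *Zbtb16* at 0.338 to 0.593 FPKM. Apart from *Ifitm3* and *Kit*, each of the 11 was thus at most at 0.593 FPKM. The levels of *Ddx4*, *Dazl* and *Pou5f1* went against the germline label in these libraries, and protein was not part of the files. Of 7 mast cell markers, *Ms4a2* was higher and *Mitf* lower, *Cpa3* was the most abundant at 245, 262, 272 and 267 FPKM, and *Fcer1a* and *Tpsb2* were at 0. Of 6 fibroblast markers 5 were tested, and *Col3a1* (0.98) and *Pdgfra* (0.83) were higher and past the threshold. *Dcn* (0.09), *Col1a2* (-0.06) and *Col1a1* (-0.07) were not past it, and *Lum* was at 0. The most abundant was *Dcn* at 41.1, 36.2, 45.9 and 36.8 FPKM. Oocyte markers summed to at most 0.249 FPKM and granulosa cell markers to at most 0.485 FPKM in any library.

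Most members were expressed well above the floor. Their median FPKM over the 4 libraries was 26.7, 67 of 92 had a mean of at least 10 FPKM and 12 of at least 100 FPKM. A filter at a mean of 0.1 FPKM let 88 members through to the test. The 4 below it were tissue isoforms of complex IV. *Cox8b* and *Cox8c* were at 0 in every library, *Cox6b2* was seen with 0.152 FPKM in shNC-2 alone and *Cox7b2* with 0.120 FPKM in shNAT10-2 alone.

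Of the 88 members tested, 8 were past the threshold and higher in shNAT10 and 5 were past it and lower, 13 in all or 14.8%. Among all 20116 genes tested, 16.2% were past it, 8.41% higher and 7.83% lower. Among protein-coding genes calls were more frequent at higher levels, at 17.9% of 12837 and at 27.8% of the 3124 with a mean of at least 10 FPKM. Of the 67 members with such a mean, 13.4% were past the threshold. By the limma adjusted p under 0.05, 0 of 88 members were called, against 13 at an unadjusted p under 0.05, and 0.437% of all genes tested were called by that rule, 88 genes. This count varied with the settings. With the filter at a mean of 1 FPKM, limma gave 296 of 12138 genes an adjusted p under 0.05, with *Atp5g2* as the member among them. Scaled to equal FPKM totals outside the rRNA-related loci or to equal sums over nuclear protein-coding genes, limma gave 136, with 0 members. With a pseudocount of 1 or 0.01, with no filter, without the trend, with the replicate block or with any library left out it gave 0, where 2007 to 3521 genes were past the threshold. Limma-voom, fitted to the fragments, called 4 members at an adjusted p under 0.05, *Atp5g2*, *Cox6a2*, *Ndufb11* and *Uqcr10*, and 7.87% of all its genes. The groups did not overlap in 36 of 88 members, 24 with both shNAT10 libraries higher and 12 with both lower, where 48% of all genes tested had groups that did not overlap (23.9% higher and 24.1% lower). In bulk RNA, fewer cells of a type and less RNA per cell cannot be told apart.

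The median log2 fold change of the 88 members was 0.016, beside 0.0054 over all genes tested. The middle part of the members lay between -0.15 and 0.14 (quartiles), against -0.28 and 0.32 for all genes, and 47 members were above 0 and 41 below. For 40 of the 88 members, or 45.5%, the 95% confidence interval lay wholly within 0.5 of 0 on the log2 scale, compared with 15.5% of all genes. Much of that gap goes with level, since among genes with a mean of at least 10 FPKM the shares were 58.2% of 67 members and 52.0% of 3124 protein-coding genes. The sum of FPKM over all members was 4385 and 4806 for the shNC libraries and 4624 and 4480.1 for the shNAT10 libraries. The shNAT10 sums lay between the shNC sums.

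**Figure D1:**
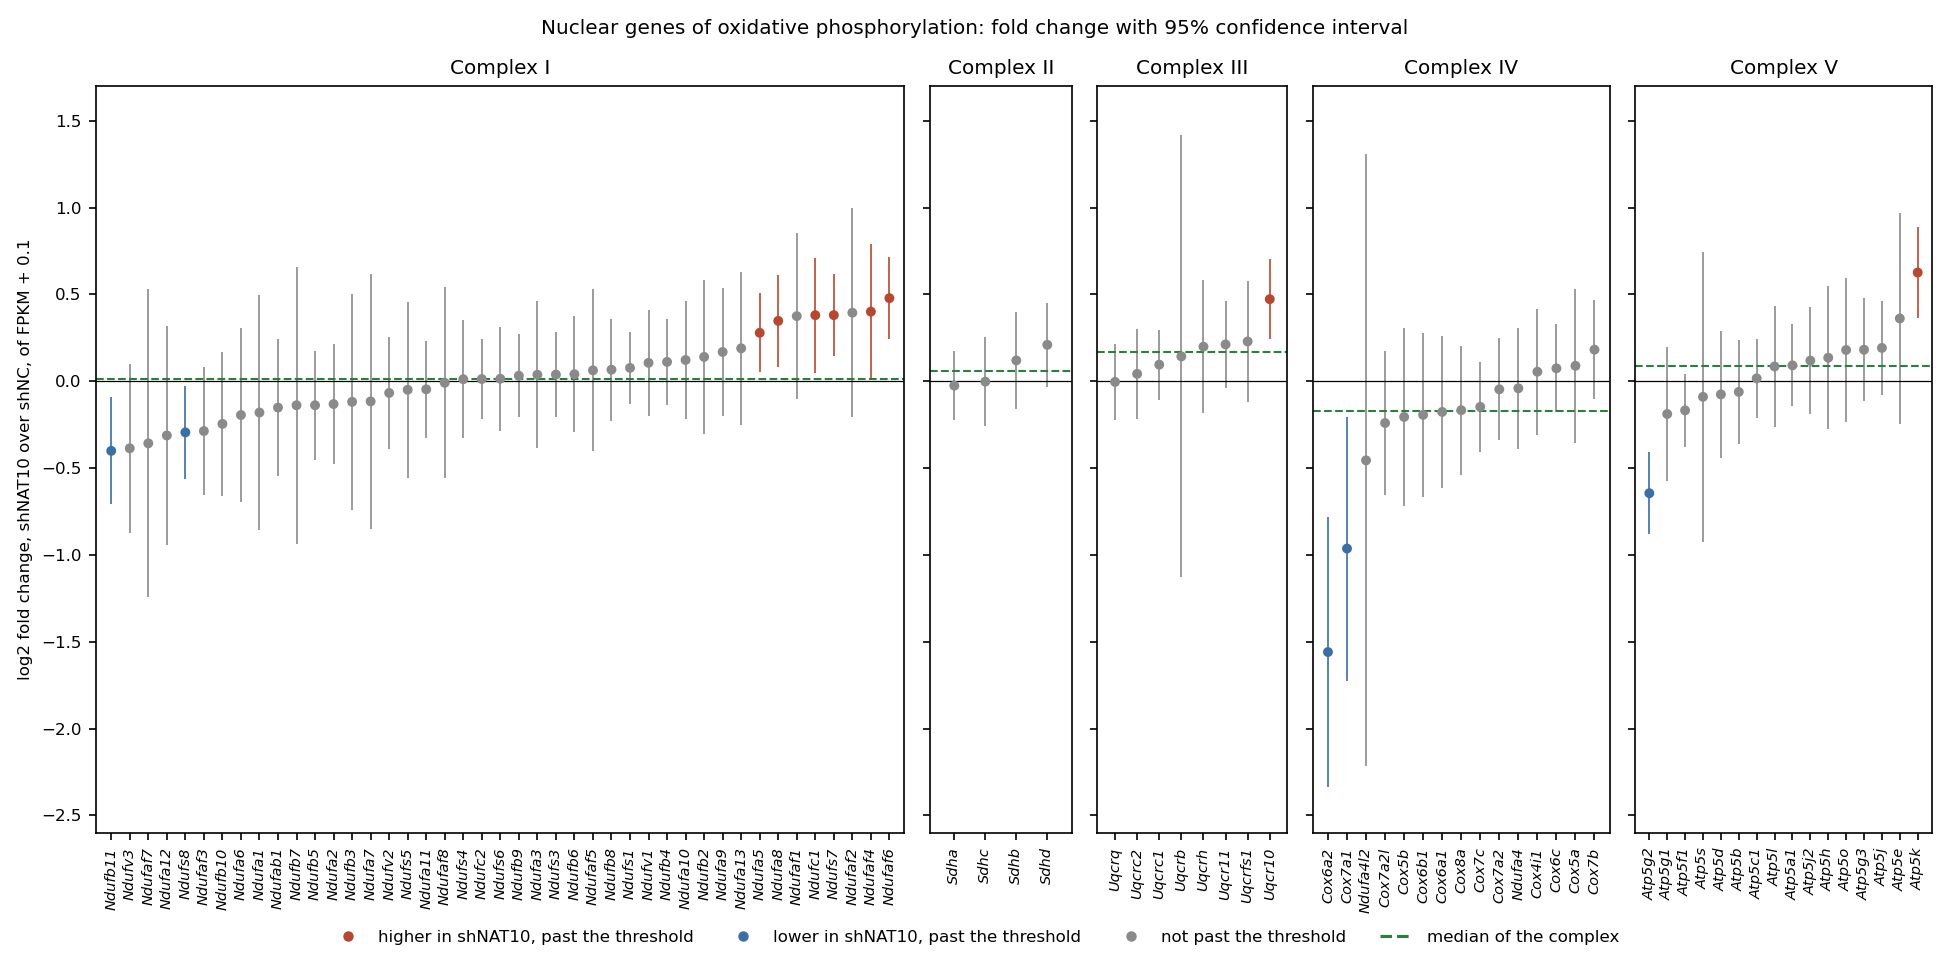
Log2 fold change of shNAT10 over shNC (FPKM + 0.1, vertical axis) for 86 of the 88 members tested, grouped by complex, with bars for the 95% confidence interval and a dashed line for the median of the complex; *Cox4i2*, with 8 fragments in all, is among those not drawn. Points in colour are the 8 higher and 5 lower members past the threshold, and the medians are 0.014, 0.059, 0.17, -0.17 and 0.09 for complexes I to V.

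Complex I, the NADH dehydrogenase, gave 44 members with a median log2 fold change of 0.014. Of these, 6 were past the threshold upwards and 2 downwards, 18.2% against 16.2% of all genes tested. Of the 44, 24 were above 0 and 20 below. With equal FPKM totals outside the rRNA-related loci 25 were above 0. That scaling raised the median of all genes tested to 0.043, and 24 were above that median with and without it. The median of complex I was -0.03 without shNC-1, 0.10 without shNC-2, -0.04 without shNAT10-1 and 0.06 without shNAT10-2. Its 7 nuclear core subunits carry the flavin, the iron-sulfur clusters and the ubiquinone site. In 5 of these 7 the confidence interval lay within 0.5 of 0. The NADH-oxidising module is made of *Ndufv1*, which holds the flavin, *Ndufv2* and *Ndufs1*. *Ndufs1* stood at 29.5 and 30.1 FPKM in shNC and at 31.0 and 31.8 FPKM in shNAT10, with a log2 fold change of 0.08 (-0.13 to 0.29). *Ndufv1* was at 29.5 and 33.0 FPKM against 31.3 and 36.0 FPKM, with 0.11 (-0.20 to 0.41). *Ndufv2* was at 51.9 and 63.4 FPKM against 53.6 and 56.0 FPKM, with -0.07 (-0.39 to 0.26) and the opposite sign without shNC-2 (0.08). The groups of *Ndufs1* did not overlap but lay close, and those of *Ndufv1* and *Ndufv2* overlapped.

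In the ubiquinone-reducing module of complex I, 2 core genes were past the threshold in opposite directions. *Ndufs7*, whose product carries the last iron-sulfur cluster before ubiquinone, stood at 15.2 and 14.6 FPKM in shNC and at 19.9 and 18.8 FPKM in shNAT10. The shNAT10 libraries stood above the shNC libraries, and replicates lay close together. *Ndufs7* rose by a log2 fold change of 0.38 (0.14 to 0.62; limma adjusted p = 0.171), and it was past the threshold with any library left out but not in limma without the trend. *Ndufs8*, whose product carries the neighbouring clusters, was at 20.1 and 19.2 FPKM in shNC and at 17.0 and 15.1 FPKM in shNAT10. Here both shNAT10 libraries were the lower ones. The log2 fold change of *Ndufs8* was -0.29 (-0.56 to -0.03; limma adjusted p = 0.268). That call was lost without shNC-1 (-0.26), shNC-2 (-0.32) or shNAT10-2 (-0.21), and also in limma-voom, in limma without the trend and with equal FPKM totals outside the rRNA-related loci. *Ndufs3*, of the same module, was at 29.0 and 31.4 FPKM against 29.96 and 32.2 FPKM, with 0.04 (-0.21 to 0.28) and groups that overlapped. Its sign turned without shNC-1 (-0.018) or shNAT10-2 (-0.012).

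The supernumerary subunits surround the core of complex I and hold no redox centre. Their 29 genes had a median log2 fold change of 0.012, with 15 above 0, and 12 intervals lay within 0.5 of 0. Past the threshold were 3 higher and 1 lower, or 13.8%, against 16.2% of all genes tested. *Ndufb11*, an X-linked subunit of the membrane arm, stood at 101 and 122 FPKM in shNC and at 83.4 and 85.1 FPKM in shNAT10. The shNAT10 libraries were alike and both lower, and the shNC libraries were further apart from each other. *Ndufb11* fell by 0.40 on the log2 scale (-0.71 to -0.09; limma adjusted p = 0.222; adjusted p = 0.0338 in limma-voom). It was not past the threshold without shNAT10-1 (-0.39), without shNAT10-2 (-0.42) or without the trend, and its value was -0.27 without shNC-2. Part of the *Ndufb11* exons, 12.9%, is shared with *Rbm10* on the opposite strand, itself at 28.2 FPKM, and the strand of counting is not stated.

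*Ndufa5*, a subunit of the matrix arm, was at 13.3 and 13.5 FPKM in shNC and at 16.3 FPKM in each shNAT10 library. Replicates were nearly equal in both groups and the groups were apart. The log2 fold change was 0.28 (0.05 to 0.51; limma adjusted p = 0.239), lost as a call without shNAT10-1 (0.28) or shNAT10-2 (0.28), with a pseudocount of 1, without the trend and in limma-voom. *Ndufa8*, on the intermembrane side, was at 16.7 and 18.5 FPKM against 21.6 and 23.3 FPKM. Again the shNAT10 libraries were the higher ones. Its log2 fold change of 0.35 (0.08 to 0.61; limma adjusted p = 0.222) was not past the threshold without shNC-1 (0.27), shNAT10-1 (0.40) or shNAT10-2 (0.29), without the trend or in limma-voom. *Ndufc1*, of the membrane arm, was at 6.89 and 5.86 FPKM against 8.31 and 8.29 FPKM. The shNAT10 libraries were alike and above both shNC libraries. The value was 0.38 (0.05 to 0.71; limma adjusted p = 0.255), and the call was lost without shNAT10-1 (0.38) or shNAT10-2 (0.38), without the trend, in limma-voom and with scaling to nuclear protein-coding genes.

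The other supernumerary genes of complex I ran from -0.39 (*Ndufv3*) to 0.19 (*Ndufa13*), none past the threshold. *Ndufc2* had the highest FPKM of the complex, 121 and 132 in shNC and 129 and 126 in shNAT10. Its libraries interleaved, with a log2 fold change of 0.01 (-0.22 to 0.24) whose sign turned without shNC-1 (-0.05) or shNAT10-1 (-0.00). *Ndufa12* differed between the replicates of both groups, at 47.0 and 35.0 FPKM in shNC and at 39.4 and 27.1 FPKM in shNAT10. Replicate 2 was lower than replicate 1 in both groups, the groups overlapped, and the log2 fold change was -0.31 (-0.94 to 0.32). With the replicate number as a block *Ndufa12* was past the threshold, as it was in limma-voom. The abundant *Ndufb4* was at 65.1 and 73.2 FPKM against 74.2 and 74.99 FPKM, with 0.11 (-0.14 to 0.36). The abundant *Ndufa6* was at 82.2 and 115 FPKM against 91.5 and 79.1 FPKM, with -0.19 (-0.70 to 0.31), so that shNC-2 alone stood above the rest.

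The 8 *Ndufaf* genes encode chaperones and enzymes that build complex I and leave it when it is complete. Their median log2 fold change was 0.22, with 5 above 0. Past the threshold were 2 of the 8, both higher, or 25%, against 16.2% of all genes tested. *Ndufaf6*, which acts early in assembly, was at 12.3 and 12.96 FPKM in shNC and at 18.0 and 17.3 FPKM in shNAT10. The groups were well apart and the replicates close. *Ndufaf6* rose by 0.48 on the log2 scale (0.24 to 0.72; limma adjusted p = 0.123), the highest value of complex I, and was past the threshold in all 14 alternatives, leaving out each library among them. *Ndufaf4*, a factor of the ubiquinone module, was at 3.45 and 4.14 FPKM against 5.19 and 4.86 FPKM. The groups did not overlap. Its value of 0.40 (0.01 to 0.79; limma adjusted p = 0.289) was not past the threshold without shNC-1 (0.27), shNAT10-1 (0.36) or shNAT10-2 (0.45), without the trend or with the replicate block. *Ndufaf1* (0.37), *Ndufaf2* (0.39), *Ndufaf5* (0.06), *Ndufaf8* (-0.01), *Ndufaf3* (-0.29) and *Ndufaf7* (-0.36) had intervals that held 0. These 6 genes lay between 1.80 (*Ndufaf1*) and 13.7 FPKM (*Ndufaf8*) on average.

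**Figure D2:**
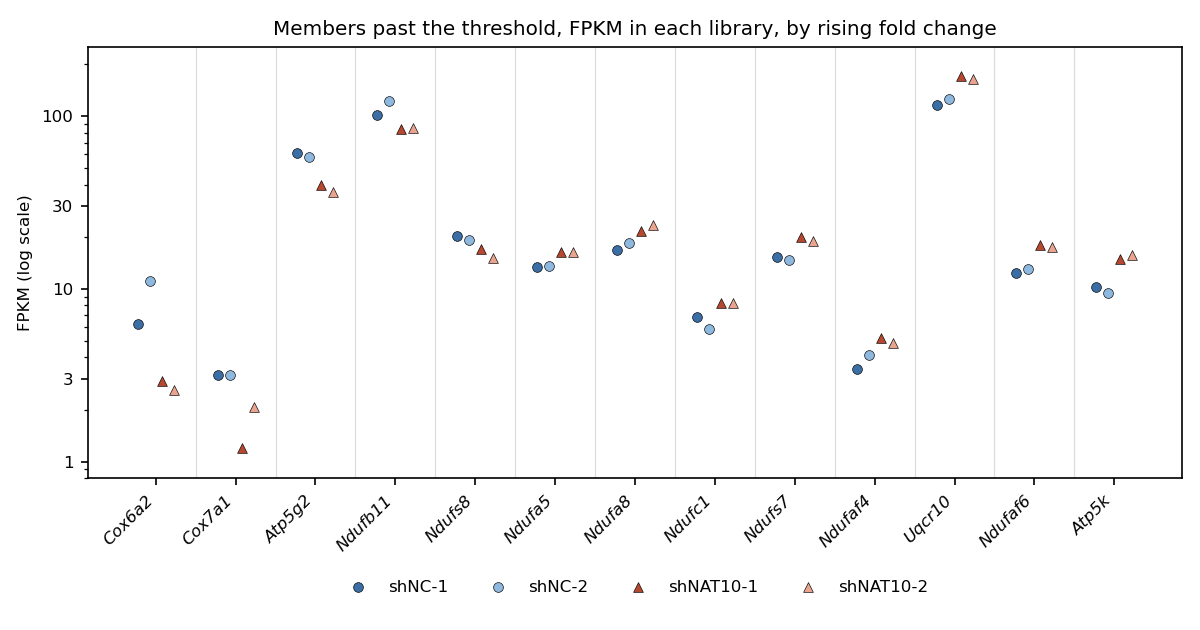
FPKM on a log scale (vertical axis) of the 13 members past the threshold, ordered by log2 fold change, with 1 point for each library, circles for shNC and triangles for shNAT10. The order runs from *Cox6a2* (-1.56) on the left to *Atp5k* (0.63) on the right. The groups do not overlap in any of the 13, which were picked by p and fold change in these same libraries. Of all genes tested, 48% had groups that did not overlap.

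Complex II, succinate dehydrogenase, is also an enzyme of the citric acid cycle and has no subunit from mitochondrial DNA. None of its 4 genes was past the threshold, and all 4 intervals lay within 0.5 of 0. *Sdha*, the flavoprotein, stood at 46.7 and 47.0 FPKM in shNC and at 45.9 and 46.1 FPKM in shNAT10, with a log2 fold change of -0.03 (-0.22 to 0.17). *Sdhb*, the iron-sulfur subunit, was at 51.4 and 60.3 FPKM against 60.7 and 60.3 FPKM, with 0.12 (-0.16 to 0.40). The 4 libraries of *Sdha* were nearly equal, and shNC-1 alone was low for *Sdhb*. Of the membrane anchors, *Sdhc* was at 22.9 and 22.3 FPKM against 21.3 and 23.9 FPKM (-0.00; -0.26 to 0.25). *Sdhd* was at 48.8 and 47.4 FPKM against 58.6 and 52.8 FPKM (0.21; -0.03 to 0.45). Its groups did not overlap, and it was past the threshold without shNAT10-2 (0.29). The median of the complex was 0.059 with 2 of 4 above 0, or 3 of 4 in limma-voom. All 4 were above 0 when libraries were scaled to equal FPKM totals outside the rRNA-related loci (median 0.10). That scaling also moved the median of all genes tested, from 0.0054 to 0.043, and 2 of 4 were above that median with and without it. Without shNC-1 the median of complex II was 0.011.

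Complex III oxidises ubiquinol, and 7 of its 8 members were above 0, or 6 without shNC-1 or without shNAT10-2. With equal FPKM totals outside the rRNA-related loci all 8 were above 0. That scaling raised the median of all genes tested to 0.043, and 7 of the 8 were above that median with and without it. The median of complex III was 0.17, or 0.10 without shNC-2 and 0.25 without shNAT10-2. The only one past the threshold was *Uqcr10*, a small subunit beside cytochrome c1, or 12.5% against 16.2% of all genes tested. *Uqcr10* stood at 115 and 125 FPKM in shNC and at 169.6 and 163 FPKM in shNAT10. In shNAT10 the level was higher in both libraries, by more than the replicates of either group differed. *Uqcr10* rose by 0.47 (0.24 to 0.70; limma adjusted p = 0.122; adjusted p = 0.00936 in limma-voom). It was past the threshold in every alternative but the one without shNAT10-1 (0.44).

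*Uqcrfs1*, the Rieske iron-sulfur protein, is the only nuclear redox subunit of complex III within the rule. It was at 9.93 and 8.16 FPKM in shNC and at 10.8 and 10.4 FPKM in shNAT10, with 0.23 (-0.12 to 0.58). The groups did not overlap, and it was past the threshold without shNC-1 (0.37). The core proteins *Uqcrc1* and *Uqcrc2*, which hold no redox centre, gave 0.10 (-0.11 to 0.30) and 0.04 (-0.22 to 0.30). *Uqcrc2* had 114 and 125 FPKM against 117 and 129 FPKM, and its libraries interleaved. *Uqcr11*, a small subunit, was at 120.5 and 135 FPKM against 150.3 and 145 FPKM (0.21; -0.04 to 0.46), groups that did not overlap. *Uqcrh*, the hinge protein, gave 0.20 (-0.18 to 0.58), and *Uqcrq*, at 131 and 141 FPKM against 135 and 136 FPKM, gave -0.00 (-0.22 to 0.22). Under the scaling outside the rRNA-related loci *Uqcrq* turned to 0.038, where the median of all genes tested was 0.043. It was below that median with and without the scaling. *Uqcrb* was the least even member, with 7.19 and 3.17 FPKM in shNC and at 7.09 and 3.95 FPKM in shNAT10, with a log2 fold change of 0.14 (-1.13 to 1.42). In both groups of *Uqcrb* replicate 2 was the lower one.

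In complex IV, cytochrome c oxidase, 12 of 16 members tested were below 0, or 11 of 16 under the scaling outside the rRNA-related loci. That scaling raised the median of all genes tested to 0.043, and 4 of 16 were above that median with and without it. The median of complex IV was -0.17. Past the threshold were 2 genes, both lower, or 12.5% against 16.2% of all genes tested. Without the 2 least expressed members, 10 of 14 were below 0 with a median of -0.16. The median depended on the libraries, at -0.17 without shNC-1, -0.04 without shNC-2, -0.23 without shNAT10-1 and -0.01 without shNAT10-2. Both genes past the threshold were isoforms that are best known from heart and skeletal muscle.

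*Cox6a2*, the muscle form of subunit VIa, stood at 6.26 and 11.03 FPKM in shNC and at 2.93 and 2.59 FPKM in shNAT10. In shNAT10 it was low in both libraries, and shNC-2 was well above shNC-1. *Cox6a2* had the lowest log2 fold change of all members, -1.56 (-2.34 to -0.78; limma adjusted p = 0.123; adjusted p = 0.00434 in limma-voom), from 191 fragments over the 4 libraries. It was past the threshold in all 10 alternatives that kept the 4 libraries but not without shNAT10-1 (-1.64) or shNAT10-2 (-1.47). *Cox7a1*, the muscle form of subunit VIIa, was at 3.18 and 3.15 FPKM against 1.19 and 2.07 FPKM, from 65 fragments. The shNC libraries were alike, and both shNAT10 libraries were lower and unequal. Its log2 fold change was -0.96 (-1.72 to -0.20; limma adjusted p = 0.230). The call was lost without shNC-1 (-0.96), without shNC-2 (-0.97) and in limma-voom, and the value moved to -0.59 without shNAT10-1 and -1.34 without shNAT10-2.

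Both isoforms made up a small share of their subunit. *Cox6a2* gave 3.805% and 4.87% of the summed FPKM of *Cox6a1* and *Cox6a2* in shNC and 1.77% and 1.55% in shNAT10. *Cox7a1* gave 3.67% and 3.63% of *Cox7a1* plus *Cox7a2* in shNC and 1.33% and 2.72% in shNAT10. The ubiquitous partners were not past the threshold. *Cox6a1* was at 158 and 215 FPKM in shNC and at 162 and 164 FPKM in shNAT10 (-0.18; -0.61 to 0.26), and *Cox7a2* at 83.5 and 83.7 FPKM against 88.3 and 74.2 FPKM (-0.05; -0.34 to 0.25). For *Cox6a1* shNC-2 alone stood high, and for *Cox7a2* the groups overlapped. Muscle markers were close to 0. The 5 genes *Acta1*, *Ckm*, *Myh7*, *Tnnt3* and *Actc1* summed to 0.112 and 0.303 FPKM in shNC and to 0.107 and 0.425 FPKM in shNAT10, with *Ckm* the most abundant and *Myh7* at 0 in every library. Only *Ckm* was tested, and it was not past the threshold. Of 7 pan-leukocyte markers, 4 were lower and past the threshold (*Cd53*, *Laptm5*, *Tyrobp* and *Lcp1*), and *Ptprc* (-0.01), *Coro1a* (-0.04) and *Spi1* (-0.13) were not past it. Their summed level was 469 and 522 FPKM in shNC and at 385 and 406 FPKM in shNAT10, with *Cd53* the most abundant at 174, 196, 121 and 126 FPKM and none at 0, and their part in the result was not tested.

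The lung and hypoxia forms were near the floor. *Cox4i2* had 8 fragments in all, at 0.216 and 0.214 FPKM in shNC and at 0.404 and 0 FPKM in shNAT10, so no fold change is given. *Ndufa4l2*, a paralogue of *Ndufa4* known from hypoxia, had 18 fragments and stood at 0.156, 0.692, 0.218 and 0.238 FPKM, with shNC-2 alone above the rest.

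The 11 ubiquitous subunits of complex IV encoded in the nucleus had a median of -0.05, with 4 above 0, and 6 intervals lay within 0.5 of 0. *Cox8a*, the gene with the highest FPKM of all members, stood at 422 and 394 in shNC and at 406 and 325 in shNAT10, with a log2 fold change of -0.17 (-0.54 to 0.20). Only shNAT10-2 was lower than the other libraries, and without it the value was -0.01. *Cox7b*, an X-linked subunit, was the highest by log2 fold change at 0.18 (-0.10 to 0.47), with 68.7 and 78.9 FPKM against 87.2 and 80.0 FPKM and groups that did not overlap. *Cox5b* (-0.21), *Cox6b1* (-0.19), *Cox7c* (-0.15), *Ndufa4* (-0.04), *Cox4i1* (0.05), *Cox6c* (0.07) and *Cox5a* (0.09) had intervals that held 0. *Cox7a2l*, which joins complexes III and IV, was at 107 and 142 FPKM in shNC and at 102 and 106 FPKM in shNAT10 (-0.24; -0.66 to 0.17). Its groups did not overlap, but the shNC libraries differed more from each other than shNC-1 did from shNAT10.

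Complex V, the ATP synthase, had 10 of 16 members above 0 under every scaling and a median of 0.09, or -0.00 without shNC-1 and 0.17 without shNC-2. The catalytic subunits had the highest FPKM among the members of the complex. *Atp5a1* stood at 292 and 295 FPKM in shNC and at 302 and 323 FPKM in shNAT10, with 0.09 (-0.14 to 0.33). *Atp5b* was at 318 and 344 FPKM against 296 and 339.9 FPKM, with -0.06 (-0.36 to 0.24), and 0.04 without shNAT10-1. The groups of *Atp5a1* did not overlap but lay close, and those of *Atp5b* overlapped. The central stalk genes *Atp5c1* (0.02), *Atp5d* (-0.08) and *Atp5e* (0.36) and the peripheral stalk genes *Atp5f1* (-0.17), *Atp5h* (0.14), *Atp5j* (0.19) and *Atp5o* (0.18) had intervals that held 0. *Atp5e* was past the threshold with the replicate number as a block. Its values were 6.06 and 8.87 FPKM in shNC and at 8.44 and 10.6 FPKM in shNAT10, with replicate 2 the higher in both groups. *Atp5s*, at 2.17 and 1.32 FPKM against 1.88 and 1.34 FPKM, gave -0.09 (-0.92 to 0.74).

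The c subunits form the ring that turns as protons pass, and *Atp5g1*, *Atp5g2* and *Atp5g3* encode precursors of the same mature protein. *Atp5g2* stood at 61.2 and 58.1 FPKM in shNC and at 39.9 and 36.5 FPKM in shNAT10. Levels in shNAT10 were far below both shNC libraries, and replicates were close. *Atp5g2* fell by 0.64 on the log2 scale (-0.88 to -0.41; limma adjusted p = 0.0837; adjusted p = 0.000381 in limma-voom) and was past the threshold in all 14 alternatives. This was the smallest p of all members. *Atp5g3* was at 35.4 and 41.1 FPKM against 45.3 and 41.3 FPKM, with 0.18 (-0.12 to 0.48). *Atp5g1* was at 7.19 and 7.91 FPKM against 7.31 and 5.96 FPKM, with -0.19 (-0.57 to 0.20). The groups of *Atp5g3* did not overlap but nearly met, and those of *Atp5g1* overlapped.

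The make-up of the c subunit mRNA shifted between the groups accordingly. *Atp5g2* gave 59.0% and 54.3% of the summed FPKM of the 3 genes in shNC and 43.1% and 43.5% in shNAT10. *Atp5g3* gave 34.1% and 38.3% in shNC and 49.0% and 49.3% in shNAT10, so that it passed *Atp5g2* in both shNAT10 libraries. *Atp5g1* stayed between 6.93% and 7.91% by FPKM, and between 2.90% and 3.23% per length of the principal transcript. The sums were 104 and 107 FPKM in shNC and at 92.5 and 83.7 FPKM in shNAT10, both lower. Counted per length of the principal transcript, *Atp5g2* gave 55.1%, 50.2%, 38.8% and 39.0%, which keeps the order of the libraries by group. *Atp5g2* shares near-identical stretches with the pseudogene *Gm10175*, at a mean of 1.06 FPKM, and with *Gm10231*, and a microRNA listed at 0 FPKM lies on its exons.

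*Atp5k*, the e subunit of the membrane part, which takes part in the pairing of ATP synthases, stood at 10.2 and 9.44 FPKM in shNC and at 14.9 and 15.6 FPKM in shNAT10. Both shNAT10 libraries were higher and the replicates of each group close. *Atp5k* rose by 0.63 (0.37 to 0.89; limma adjusted p = 0.0950), the highest log2 fold change of all members, and was past the threshold in all 14 alternatives. The remaining membrane subunits *Atp5j2* and *Atp5l* gave 0.12 (-0.19 to 0.42) and 0.09 (-0.26 to 0.43).

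**Figure D3:**
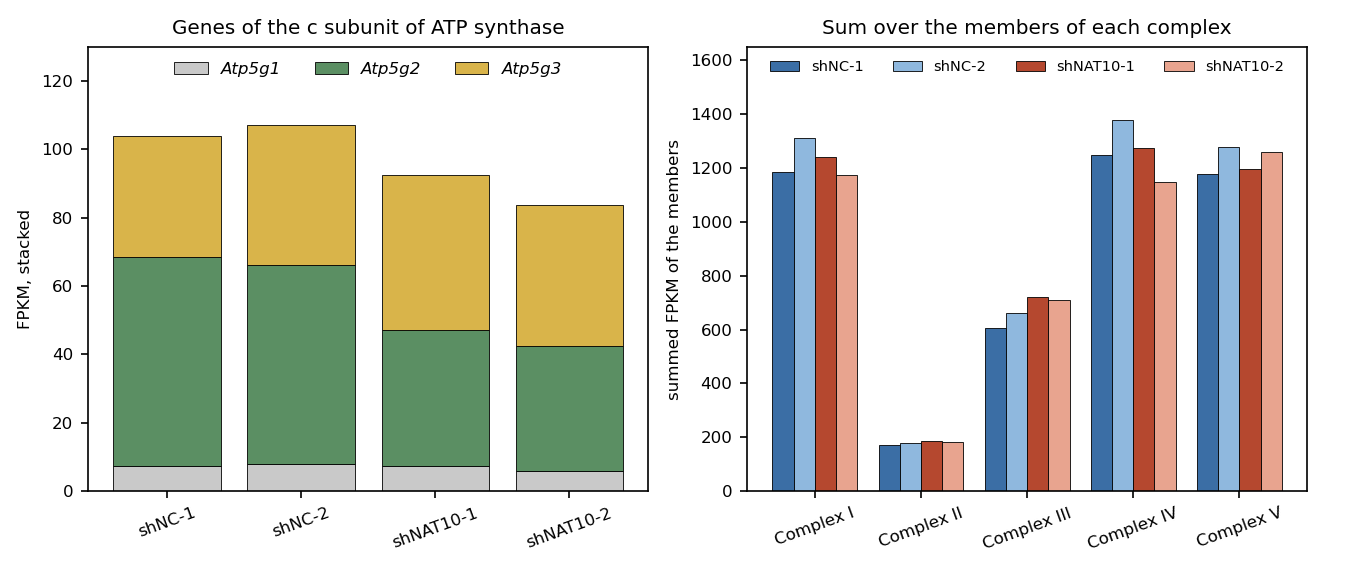
On the left, stacked bars give the FPKM of the 3 genes for the c subunit in each library, with *Atp5g2* the larger part in shNC (59.0% and 54.3%) and *Atp5g3* in shNAT10 (49.0% and 49.3%). On the right, bars give the summed FPKM over the members of each complex in each library, with both shNAT10 libraries above both shNC libraries for complexes II and III.

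The FPKM of the members were also summed within each complex. Complex III summed to 604 and 660.4 FPKM in shNC and to 723 and 711 FPKM in shNAT10, a log2 ratio of 0.18. Complex II summed to 169.7 and 177 FPKM against 187 and 183 FPKM (0.09). The shNAT10 sums were the higher ones for both. Complex I gave 1185 and 1313 FPKM against 1242 and 1175 FPKM (-0.05), complex IV 1247 and 1379.6 FPKM against 1276 and 1149 FPKM (-0.12), and complex V 1179 and 1277 FPKM against 1197 and 1261 FPKM (0.00). For complexes I, IV and V the groups overlapped.

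The 12 core subunits of complexes I, II, III and V together had a median of 0.058 and 9 intervals within 0.5 of 0. Past the threshold were *Ndufs7* and *Ndufs8*, or 16.7% against 16.2% of all genes tested. Replicates differed as much as groups for many members. In 53 of 88 members the shNC libraries were further apart than the group means, and 59 were higher in shNC-2 than in shNC-1, with a median difference of 0.11 on the log2 scale, against 0.00 over all genes. In shNAT10 the median difference of replicate 2 over replicate 1 was -0.06. Protein-coding genes with a mean of at least 10 FPKM and exons under 1500 nt gave 0.13 and -0.04. Accordingly the median over all members was -0.03 without shNC-1, 0.09 without shNC-2, -0.00 without shNAT10-1 and 0.06 without shNAT10-2. The members past the threshold numbered 7 higher and 9 lower, 13 and 3, 3 and 5, and 5 and 2 in the same order, while 16.9%, 15.5%, 9.98% and 10.9% of all genes tested were past it. Members past it past it with every library left out in turn were *Atp5g2*, *Atp5k*, *Ndufaf6* and *Ndufs7*.

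FPKM rests on the union of all exons of a gene, which for 28 members is more than 2 times the length of the principal transcript. Ranks by level changed with the length used. With FPKM recomputed per length of the principal transcript, *Atp5b* led with 718, followed by *Cox8a* with 435, *Atp5a1* with 384 and *Atp5l* with 379, and within complex I *Ndufa6* passed *Ndufc2*.

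Promoter letters of regulators were counted as a feature that the rule did not use. RefSeq promoter windows (GRCm38.p6, 250 bases before to 50 after the start) were found for 76 of the 92 genes, and those without one include *Ndufs1*, *Ndufa2*, *Ndufb9*, *Ndufaf6*, *Sdhc*, *Uqcrb*, *Uqcrc2*, *Uqcrq*, *Cox4i1*, *Cox4i2*, *Cox6a2*, *Cox6c*, *Cox8c*, *Ndufa4l2* and *Atp5a1*. The inner letters of the site of NRF1, a regulator of respiratory genes, are GCATGCG or CGCATGC on the other strand, and the pair overlaps within CGCATGCG. They were in 13 of 76 members, or 17.1%, against 4.96% of 17492 protein-coding genes and 3.58% of 32851 windows. The letters CCGGAAG of ETS factors such as GABPA, which read CTTCCGG on the other strand, were in 23.7% of members, 12.9% of protein-coding genes and 8.86% of windows. The letters AAGATGG of YY1, which read CCATCTT on the other strand, were in 15.8%, 7.18% and 6.34%. Any of the 3 was found in 35 of 76 members, or 46.1%, and in 22.6% of protein-coding genes. The ETS letters end with the AAG that opens the YY1 letters, so both can share these bases, and a match describes the window and is not a measured site.

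The NRF1 letters occurred in members that moved in opposite directions. *Atp5g2*, the lower gene with the smallest p, and *Atp5k*, the higher gene with the largest log2 fold change, held them at nearly the same distance before the start. The stretches are shown because they carry the same letters, which stand in capitals, on the minus strand of GRCm38 at chr15:102671071-102671097 for *Atp5g2* and chr5:108434431-108434457 for *Atp5k*, with the first capital at -40 and -48 from the start.
Atp5g2: ctccggccgcGCATGCGcagagccttc
Atp5k: tcactgcggcGCATGCGcctttctggc
Also past the threshold and with NRF1 letters were *Ndufa8* and *Ndufaf4*, both higher. *Ndufs7* and *Ndufc1* held the YY1 letters, and *Ndufs8*, lower, and *Atp5k*, higher, the ETS letters. *Nrf1* itself was at 3.26 and 3.09 FPKM in shNC and at 2.61 and 2.73 FPKM in shNAT10, both lower, with -0.24 (-0.60 to 0.12) and not past the threshold. *Gabpa* gave -0.06 (-0.54 to 0.42) and *Yy1* 0.03 (-0.24 to 0.31).

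The members lie on 19 chromosomes, 3 of them on X (*Ndufa1*, *Ndufb11* and *Cox7b*). Near-identical stretches in another gene, of at least 150 nt at 98% identity, were found for 21 members, overlaps at the same locus included. The copy was itself listed with a mean above 10 FPKM for *Cox5b* (*Gm11273*, 50.47), *Ndufa12* (*Gm15920*, 26.6) and *Ndufs5* (*BC002163*, 20.3). For *Uqcrc2* (*Pdzd9*, 22.1), *Ndufb5* (*Mrpl47*, 18.4) and *Cox4i1* (*Emc8*, 14.2) the stretch lay in an antisense gene at the same locus. The FPKM of these 6 members are uncertain. Since the strand of counting is not stated, those of other members with an antisense overlap are uncertain too. For example, *Ndufs1* shared 6.16% of its exons with antisense genes, among them *Eef1b2* at 276 FPKM, and *Atp5l* 2.06% with *Gm30934* at 175 FPKM. *Atp5o* shared 47.9% with other genes, among them antisense *D430001F17Rik* at 2.36 FPKM and a same-strand entry of the same name, so its FPKM are also uncertain. Exon bases were shared with another gene in 32 members, in 29 of them with an antisense gene, and among those past the threshold only in *Ndufb11*, *Cox6a2* and *Atp5g2*. For *Cox6a2* the antisense gene was *Itgad*, at 0.179 FPKM over 10.3% of the exon.

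Other genes of the pathway were read from lists of 106 genes, of which 105 were tested. Past the threshold were 7 higher and 5 lower, 11.4%, against 16.2% of all genes tested (8.41% higher and 7.83% lower). The median log2 fold change was 0.00. Among 18 genes of cytochrome c, electron transfer flavoprotein and coenzyme Q, 3 were higher and 1 lower (22.2%). *Pdss1*, which makes the side chain of coenzyme Q, was at 5.17 and 4.60 FPKM in shNC and at 7.65 and 8.26 FPKM in shNAT10. It was higher in both shNAT10 libraries, and *Pdss1* rose by 0.69 (0.37 to 1.02; limma adjusted p = 0.115; adjusted p = 0.00295 in limma-voom) and was past the threshold with any library left out. Part of its exons, 9.44%, is shared with antisense genes, among them *Abi1* at 21.7 FPKM. *Coq6*, a hydroxylase of the same synthesis, and *Coq4* gave 0.39 and 0.49. *Coq10b*, which binds coenzyme Q, was at 7.49 and 7.56 FPKM against 5.42 and 4.48 FPKM, lower in both shNAT10 libraries. It gave -0.60 (-0.96 to -0.24; limma adjusted p = 0.162; adjusted p = 0.00785 in limma-voom). Calls were lost without either shNC library for *Coq10b* (-0.61 and -0.59), without either shNAT10 library for *Coq6* (0.39 and 0.38), and when any of the 4 libraries was left out for *Coq4* (0.41 to 0.57). Part of the *Coq4* exons, 27.1%, is shared with *Trub2*. The electron carrier *Cycs* gave 0.09 (-0.14 to 0.32) and *Cyc1*, the cytochrome c1 of complex III, 0.16 (-0.10 to 0.42).

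Of 42 assembly factors tested outside the name rule, 2 were higher and 1 lower (7.14%), with a median of 0.01. *Coa3*, which acts on the first mitochondrial subunit of complex IV, was at 8.65 and 6.85 FPKM in shNC and at 11.9 and 12.1 FPKM in shNAT10. Both shNAT10 libraries were higher, with a log2 fold change of 0.63 (0.25 to 1.01; limma adjusted p = 0.162; adjusted p = 0.0816 in limma-voom), lost as a call without shNAT10-1 (0.64) or shNAT10-2 (0.62), and 9.26% of its exons are shared with the antisense gene *Cntd1*, at 8.22 FPKM. *Ecsit*, a complex I factor, gave 0.35 and *Sdhaf3*, a complex II factor, -0.62. Neither call held with any library left out, at 0.28 to 0.42 and -0.79 to -0.45, and 24.0% of the *Ecsit* exons are shared with *Gm16845*. Among 16 genes of the citric acid cycle and pyruvate dehydrogenase, 1 was higher and 2 lower (18.75%), with a median of -0.01. *Idh3a*, of isocitrate dehydrogenase, was at 14.97 and 17.5 FPKM against 21.3 and 21.7 FPKM (0.41; limma adjusted p = 0.206; adjusted p = 0.0256 in limma-voom). Its shNAT10 libraries were both higher, and the call was lost without shNAT10-1 (0.42) or shNAT10-2 (0.40). *Cs*, citrate synthase, gave -0.33 and *Suclg2*, of succinyl-CoA ligase, -0.42, both lower in each shNAT10 library. The call of *Cs* was lost without shNC-2 (-0.24), shNAT10-1 (-0.33) or shNAT10-2 (-0.33), and that of *Suclg2* without shNC-1 (-0.39), shNC-2 (-0.45) or shNAT10-1 (-0.29).

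The 13 subunits of mitochondrial DNA had a median of -0.02, with 6 above 0. *mt-Nd4l* was lower and past the threshold (-1.25) on 10, 7, 5 and 3 fragments, a call lost without shNC-1 (-0.996), shNC-2 (-1.50) or shNAT10-2 (-0.79). *mt-Atp8* passed with 1 fragment in each shNAT10 library and 0 in shNC, too few for a fold change. Both genes overlap a neighbour on the mitochondrial genome. The partner of the nuclear complex III genes, *mt-Cytb*, was at 2209 and 1898 FPKM in shNC and at 2529.9 and 2765 FPKM in shNAT10, both higher, with 0.37 (-0.04 to 0.78) in limma and an adjusted p of 0.00302 in limma-voom. *mt-Co1* of complex IV gave -0.37 (-1.001 to 0.27) in limma and an adjusted p of 0.0279 in limma-voom, with groups that overlapped. None of 16 regulators of mitochondrial biogenesis and mitochondrial DNA was past the limma threshold at an unadjusted or adjusted p, and 10 were above 0, with a median of 0.05. *Ppargc1a*, the coactivator, was at 0.530 and 0.754 FPKM against 0.641 and 0.574 FPKM, and *Tfam*, which packs mitochondrial DNA, at 14.1 and 13.9 FPKM against 15.4 and 14.5 FPKM. Outside the name rule, the complex V subunit *Usmg5*, at 419, 531, 529 and 547 FPKM, gave 0.19 (-0.19 to 0.57) and the inhibitor *Atpif1* 0.06 (-0.35 to 0.47).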

How the data were processed

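FPKM of 53465 genes in 4 libraries were used as deposited by the authors. According to the processing notes of the submitters, reads were trimmed with cutadapt, aligned to mm10 with HISAT2 and compared with DESeq2. The deposited columns with the authors' comparison (log2 fold change, p and adjusted p) were not used. Libraries were grouped by their titles. With R 4.3.3, limma 3.58.1 (eBayes with trend after lmFit) compared log2(FPKM + 0.1) of 20116 genes whose mean reached 0.1 FPKM, two-sided, and adjusted p by Benjamini-Hochberg over them all. Past the threshold means over 1.2-fold with an unadjusted limma p not above 0.05. Fragments were recovered as FPKM times exon length (GENCODE M21, GRCm38) and the step of each library, with 95.9% to 96.5% of values under 50 fragments within 0.02 of a whole number. The limma test was also run on simulated data.

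Genes were named by rule, namely *Nat10*, members past the threshold, core subunits, isoforms by level, the highest by level and the highest and lowest by fold change in each complex, and pathway genes past the threshold. Further genes were named to show the other members of a complex. The members, lists and marker genes were chosen with earlier results of these data known. Alternatives were a pseudocount of 0.01 or 1, filters at a mean of 1 FPKM or above 0 in any library, rescaling by median ratios, to equal FPKM totals outside the rRNA-related loci or to equal sums over nuclear protein-coding genes, limma-voom on the fragments, limma with no trend, a block for the replicate number, and leaving out each library. Levels per length of the principal transcript were added after seeing the data, as a description. Promoter windows came from RefSeq, and near-identical copies were searched with blastn 2.17.0. The rest used numpy 2.4.6, pandas 2.3.3, scipy 1.17.1 and matplotlib 3.10.9 under Python 3.11.15.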

Additional observations from a re-analysis of the deposited data

How the results depend on the processing

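Among values of the genes named by rule, which leaves out other genes in the text, under the alternatives and with each library left out, 480 gave the same call and direction, 81 kept the direction but not the threshold, 2 newly passed it and 10 changed direction. The 480 include values under the median-ratio rescaling, which repeated the main fit. With equal FPKM totals outside the rRNA-related loci, *Sdha* turned to 0.016 and *Uqcrq* to 0.038. Pathway genes past the threshold and higher numbered 11, and the median of complex II was 0.10. That scaling moved the median of all genes tested from 0.0054 to 0.043. *Sdha* and *Uqcrq* were below that median with and without it, and complex II lay above it by 0.057 with the scaling and by 0.054 without. Without the trend 3 members were higher and 3 lower, and 4 and 2 pathway genes, with 13.7% of all genes past the threshold. In limma-voom 5 members and 11 pathway genes were higher, with 19.4% of all genes past it. With the replicate number as a block 8 members were higher and 6 lower, 6 and 4 pathway genes and 15.5% of all genes were past it, and the medians were as before (0.016 over all members). Differences between replicates 1 and 2 correlated between the groups at -0.0017 across 12138 genes and at 0.474 across 86 members, as a description, and the block newly called *Ndufa12* and *Atp5e* and lost *Ndufaf4*. Leaving out each library in turn, members past the threshold ranged from 3 to 13 higher and from 2 to 9 lower, and pathway genes from 2 to 9 and from 2 to 5. Medians ranged from -0.029 to 0.09 over all members, and from -0.035 to 0.10, 0.011 to 0.10, 0.10 to 0.25, -0.23 to -0.010 and -0.0013 to 0.17 for complexes I to V. Log2 fold changes ranged from -0.048 to 0.074 for *Ndufc2*, -0.018 to 0.096 for *Ndufs3*, -0.21 to 0.076 for *Ndufv2*, -0.054 to 0.046 for *Uqcrq*, -0.16 to 0.038 for *Atp5b*, 0.09 to 0.37 for *Uqcrfs1* and 0.13 to 0.29 for *Sdhd*. The cause of these shifts was not tested. A library left alone in its group was assumed to vary like the other group.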
